A study of Homo sapiens with 24 samples.

Results

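The 10 genes described here are factors, targets, inhibitors and a ligand of the WNT pathway, namely WNT16, CTNNB1, TCF7, TCF7L1, TCF7L2, LEF1, AXIN2, NKD1, DACT1 and LGR5. They are 10 of 18640 genes with a mean over exon probe sets, and each was found through the probe sets that carry its symbol and no other. They were chosen by their differences between isoginkgetin and DMSO and their levels without drug on these arrays, so these values are given as a description. Counts of calls among them stand beside the share of all genes called, and nothing is read from them. RNA was measured on the Human Transcriptome Array 2.0 of Affymetrix, with separate probe sets inside exons and across exon junctions. Total RNA came from HCT116p53-/- cells, a p53-null subline of the human colorectal carcinoma line HCT116 and called p53-null below, and from HCT116 cells. Each line was given 30 µM isoginkgetin, a biflavonoid from plants known for blocking the splicing of pre-mRNA, or an equal volume of its vehicle DMSO, or was left untreated, for 8 h. The 6 groups held 2 arrays each, from independent experiments, and both lines carry the mutant beta-catenin known for HCT116. A set below means the 3 arrays that share a line and a replicate number, and there were 4 sets.

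WNT proteins are secreted ligands that bind Frizzled receptors and LRP co-receptors. Without a ligand, a cytoplasmic complex built on AXIN and APC marks beta-catenin, the product of CTNNB1, for degradation. With a ligand, or with beta-catenin mutated at the sites this complex marks, beta-catenin reaches the nucleus, binds the TCF/LEF factors and activates targets such as AXIN2, NKD1 and LGR5. In the intestine this pathway maintains the stem cells of the crypt, and mutations that keep it on are a common event in colorectal cancer.

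The set labelled HCT116 replicate 1 stood apart from the other 3 sets. Its arrays had a median exon probe set of 5.03 to 5.08 (log2), against 4.14 to 4.22 on the other arrays, and its mean profile over genes correlated with the other sets at 0.881 to 0.885, against 0.990 to 0.996 among those. Of 12 measured epithelial markers, 7 were at 9.61 to 14.4 in the other 3 sets, and all 7 were at 3.81 to 5.78 in the set labelled HCT116 replicate 1. EPCAM, an adhesion molecule of epithelia, was at 4.62 there and at 12.0 to 12.2 elsewhere. Of the 12 epithelial markers, 1 (VIL1) was over 1 log2 unit higher in that set than in each of the others, at 4.78 against 3.34 to 3.67. Of 9 measured fibroblast markers, 3 (FBN1, THY1 and DCN) were higher in that set by the same measure. DCN was at 4.81 there, and both DCN and VIL1 lay below the median exon probe set of those arrays. The part of these differences between sets in the results below was not tested. Results are given with and without the set labelled HCT116 replicate 1. A level on the array belongs to its own probes, so levels of different genes are not compared. In RNA from whole cultures, fewer cells of a type and less RNA per cell cannot be told apart.

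The promoters of 7 of the 10 genes were matched by symbol in RefSeq (GRCh38.p14), with 12 start sites in all, and each was read over the 250 bases before the start. AXIN2, LGR5 and NKD1 had no match. The 3 shown belong to the gene with the widest gap between the lines (WNT16) and to a pair of genes that were lower with isoginkgetin in p53-null cells (TCF7L2 and DACT1), with capitals for CTTTGA, the core letters of the TCF/LEF motif. The windows lie at chr7:121328750-121328999 for WNT16, chr10:112949997-112950246 for the first start of TCF7L2 and chr14:58633811-58634060 for the most upstream of 3 starts of DACT1, each on the plus strand.
WNT16: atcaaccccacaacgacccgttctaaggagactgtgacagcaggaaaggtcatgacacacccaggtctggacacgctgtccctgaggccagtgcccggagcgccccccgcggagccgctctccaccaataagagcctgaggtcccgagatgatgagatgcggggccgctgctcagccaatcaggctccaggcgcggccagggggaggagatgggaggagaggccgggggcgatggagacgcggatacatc
TCF7L2: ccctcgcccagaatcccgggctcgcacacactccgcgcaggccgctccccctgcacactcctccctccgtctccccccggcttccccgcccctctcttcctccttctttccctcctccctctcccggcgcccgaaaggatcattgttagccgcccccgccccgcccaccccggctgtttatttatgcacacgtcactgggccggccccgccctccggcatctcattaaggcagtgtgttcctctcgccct
DACT1: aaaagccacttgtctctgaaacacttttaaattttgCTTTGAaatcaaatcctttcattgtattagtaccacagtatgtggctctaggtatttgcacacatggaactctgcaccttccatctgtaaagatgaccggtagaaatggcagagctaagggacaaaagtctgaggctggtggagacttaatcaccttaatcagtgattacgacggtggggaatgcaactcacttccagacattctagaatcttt
CTTTGA was searched on both strands, where it reads TCAAAG on the other, and was found in 3937 of 35116 promoters of this length (11.2%). Among the 12 promoters of the genes described here it was found once, in DACT1, starting at position -214 from the annotated start. The longer CTTTGAT, which overlaps it and reads ATCAAAG on the other strand, was found in 794 of the 35116 (2.26%) and in 0 of the 12. Their G and C content ran from 40.8% in the DACT1 window shown to 78.4% in another DACT1 window, with 64.8% for WNT16 and 68% for TCF7L2. The WNT16 window holds 17 CpG dinucleotides, the TCF7L2 window 21 and the DACT1 window shown 3. These letters were found or not in these windows, and nothing is drawn from them about binding of a factor.

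WNT16, a WNT ligand, had the widest gap between the lines. Its exon mean, the mean log2 value of its 9 exon probe sets, was 10.65 and 11.24 with isoginkgetin, 10.90 and 11.42 with DMSO and 11.14 and 11.43 untreated in p53-null cells (replicates 1 and 2). In arrays labelled HCT116 it was 4.57 and 5.97 with isoginkgetin, 4.48 and 6.46 with DMSO and 4.26 and 6.42 untreated. All 6 p53-null arrays lay above all 6 arrays labelled HCT116. In DMSO the p53-null arrays averaged 11.16 ± 0.37 and the HCT116 arrays 5.47 ± 1.40 (log2, SD, n = 2 each), a difference of 5.69. Against HCT116 replicate 2 alone it was 4.70, which is 26.0-fold, and 4.83 after quantile scaling of the arrays. Against that array all 9 exon probe sets were higher in p53-null cells, by 0.30 to 7.34 with a median of 5.64. The 5 junction probe sets, read apart from the exons, averaged 9.02 and 9.73 in p53-null DMSO arrays, against 6.43 and 6.85 in HCT116 DMSO arrays. The gap was thus present in exons and in junctions, and it was as wide in untreated cells, at 5.95 over both HCT116 arrays and 4.87 against HCT116 replicate 2.

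The gap was also present with isoginkgetin. Within sets, WNT16 differed between isoginkgetin and DMSO by −0.25 and −0.18 in p53-null cells, and by 0.09 and −0.48 in HCT116 replicates 1 and 2 (log2). Over the p53-null sets this was a mean of −0.21 ± 0.05 (SD, n = 2 sets), or −13.7%. Of its 9 exon probe sets, 8 and 8 were lower in the p53-null sets and 7 in HCT116 replicate 2, against 2 in the set labelled HCT116 replicate 1.

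**Figure D1:**
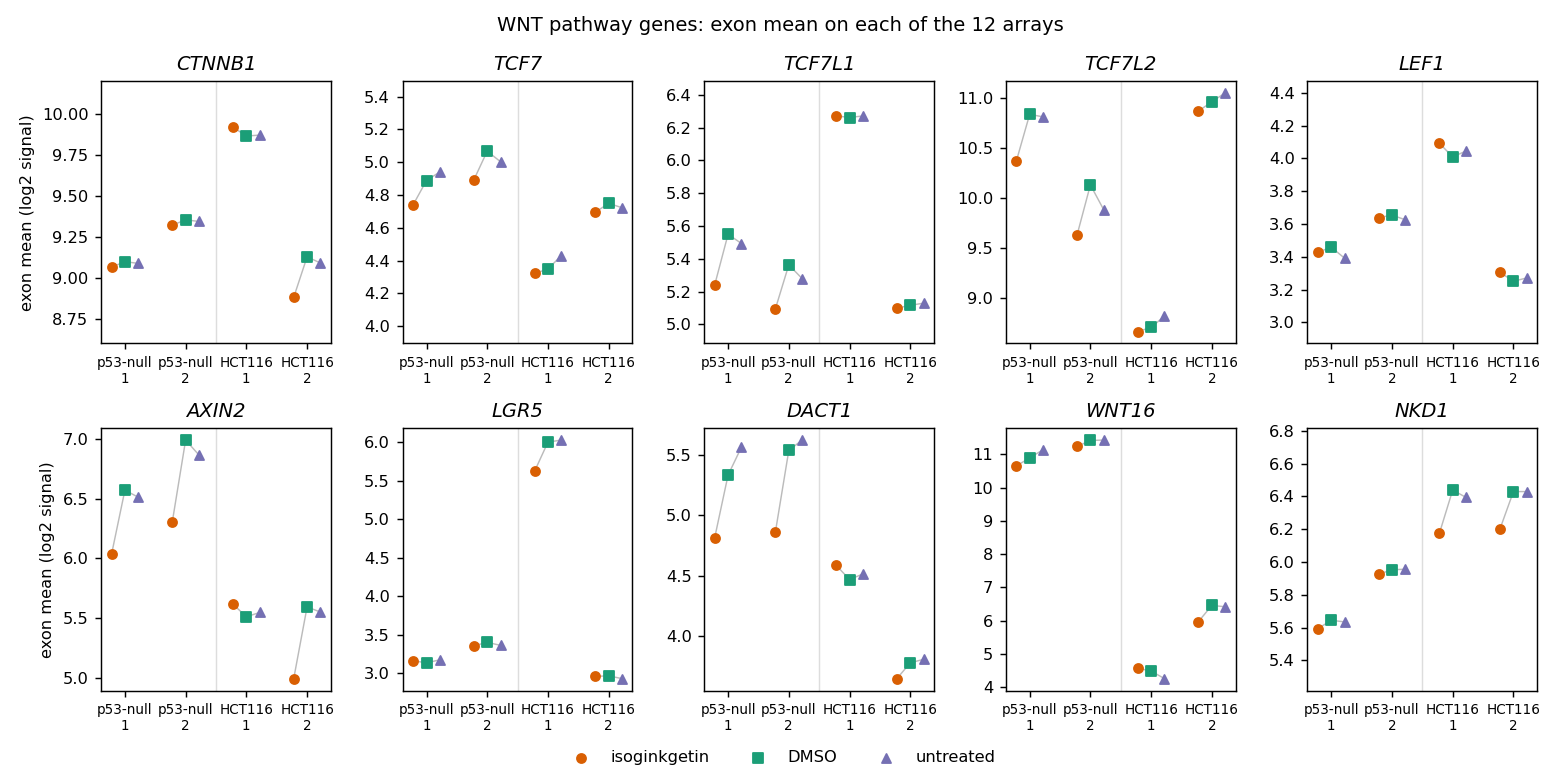
Exon mean (log2 signal, vertical axis, its own scale in each panel and at least 1.6 units tall) of the 10 genes in each of the 4 sets, with a point for each array in the order isoginkgetin, DMSO, untreated. WNT16 lies at 10.65 to 11.43 in the p53-null sets and at 4.26 to 6.46 in the sets labelled HCT116, and LGR5 is above 5 in the set labelled HCT116 replicate 1 only.

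CTNNB1 encodes beta-catenin, the coactivator on which the pathway turns. Over 50 exon probe sets it was at 9.07 and 9.32 with isoginkgetin, 9.10 and 9.36 with DMSO and 9.09 and 9.35 untreated in p53-null cells. In arrays labelled HCT116 it was at 9.92 and 8.88 with isoginkgetin, 9.87 and 9.13 with DMSO and 9.87 and 9.09 untreated. The differences between isoginkgetin and DMSO were −0.03 and −0.03 in p53-null cells and 0.05 and −0.25 in HCT116 replicates 1 and 2. In HCT116 replicate 2, 34 of its 50 exon probe sets were lower with isoginkgetin, 8 were higher and 8 were equal, while 19 and 21 were lower in the p53-null sets. Its junction mean there differed by −0.26 and its exon mean by −0.25. Between the lines in DMSO, CTNNB1 differed by −0.27 as deposited, by −0.02 after quantile scaling and by 0.16 with the arrays centred on their medians, so that the direction depended on the scaling.

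Of the 4 DNA-binding factors, TCF7L2 had the widest difference between isoginkgetin and DMSO. TCF7L2, the main factor of this family in intestinal epithelium, was at 10.37 and 9.63 with isoginkgetin, 10.84 and 10.13 with DMSO and 10.81 and 9.88 untreated in p53-null cells (39 exon probe sets). The arrays labelled HCT116 had it at 8.67 and 10.87 with isoginkgetin, 8.71 and 10.96 with DMSO and 8.82 and 11.05 untreated. The replicates of a line lay further apart than the treatments, and the isoginkgetin array was the lowest of its set in all 4 sets. The difference between isoginkgetin and DMSO averaged −0.48 ± 0.02 over the p53-null sets (−28.5%) and −0.07 ± 0.04 over the HCT116 sets (−4.54%; SD, n = 2 sets each). In the p53-null sets 34 and 36 of 39 exon probe sets were lower with isoginkgetin, and in the HCT116 sets 17 and 20. The gene-level value, a separate summary of the gene made by the authors, was lower by 0.37 in both p53-null sets and exactly equal in both HCT116 sets. In p53-null replicate 2 the DMSO array also lay 0.25 above the untreated array, so that isoginkgetin was closer to untreated (9.63 against 9.88) than to DMSO.

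TCF7L1, a member of the family that acts mainly as a repressor, was at 5.24 and 5.10 with isoginkgetin, 5.55 and 5.36 with DMSO and 5.49 and 5.28 untreated in p53-null cells (23 exon probe sets). Arrays labelled HCT116 read 6.27 and 5.10 with isoginkgetin, 6.26 and 5.12 with DMSO and 6.27 and 5.13 untreated. The difference between isoginkgetin and DMSO averaged −0.29 ± 0.03 over the p53-null sets (−18.1%) and −0.00 ± 0.02 over the HCT116 sets (SD, n = 2 sets each). The p53-null sets thus had the lower isoginkgetin array in both replicates, with 13 and 17 of 23 exon probe sets lower against 2 and 1 higher. Its gene-level value was exactly equal between isoginkgetin and DMSO in all 4 sets.

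TCF7, which is best known from T cells, was at 4.74 and 4.89 with isoginkgetin, 4.89 and 5.07 with DMSO and 4.94 and 5.002 untreated in p53-null cells (54 exon probe sets). For arrays labelled HCT116 its levels were 4.32 and 4.69 with isoginkgetin, 4.35 and 4.75 with DMSO and 4.43 and 4.72 untreated. The isoginkgetin array was the lowest of its set in all 4 sets, with differences from DMSO between −0.17 and −0.03. LEF1, the family's founding member in lymphoid cells, was at 3.43 and 3.64 with isoginkgetin, 3.46 and 3.66 with DMSO and 3.39 and 3.63 untreated in p53-null cells (43 exon probe sets). In arrays labelled HCT116 LEF1 was at 4.09 and 3.31 with isoginkgetin, 4.01 and 3.25 with DMSO and 4.05 and 3.27 untreated. Its treatments lay within 0.09 of each other in every set, and after quantile scaling the DMSO arrays of both lines averaged 3.67 and 3.54 (p53-null and HCT116).

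AXIN2 is the scaffold that rebuilds the degradation complex and a direct target of TCF/LEF factors, often read as a measure of the pathway's activity. It was at 6.04 and 6.30 with isoginkgetin, 6.57 and 6.99 with DMSO and 6.51 and 6.87 untreated in p53-null cells (18 exon probe sets). Its levels in arrays labelled HCT116 were 5.62 and 4.99 with isoginkgetin, 5.51 and 5.59 with DMSO and 5.55 and 5.55 untreated. In 3 sets the isoginkgetin array lay clearly below both others, by 0.54, 0.69 and 0.60 under DMSO, and in the set labelled HCT116 replicate 1 it was the highest of its set. Over these 3 sets the difference averaged −0.61 ± 0.08 (SD, n = 3), or −34.4%, and over all 4 sets −0.43 ± 0.36. In the 3 sets 11, 15 and 15 of 18 exon probe sets were lower and 2, 0 and 2 were higher, against 5 lower and 10 higher in the set labelled HCT116 replicate 1. The gene-level values were lower with isoginkgetin by 0.31 and 0.42 in p53-null cells and by 0.32 in HCT116 replicate 2, and equal in HCT116 replicate 1. AXIN2 was also higher in p53-null cells without drug: the DMSO arrays averaged 6.78 ± 0.30, against 5.55 ± 0.06 in HCT116 arrays (SD, n = 2 each). That is a difference of 1.23, or 2.28-fold against HCT116 replicate 2 alone. From highest to lowest the DMSO arrays ran p53-null 2, p53-null 1, HCT116 2 and HCT116 1, and the last 2 differed by 0.08 as deposited and by 0.79 after quantile scaling.

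NKD1, a feedback inhibitor that binds Dishevelled, was at 5.59 and 5.93 with isoginkgetin, 5.64 and 5.95 with DMSO and 5.63 and 5.96 untreated in p53-null cells (12 exon probe sets). In arrays labelled HCT116 it was at 6.17 and 6.20 with isoginkgetin, 6.44 and 6.43 with DMSO and 6.39 and 6.43 untreated. Here the HCT116 sets had the wider difference, −0.25 ± 0.03 on average (−15.7%), against −0.04 ± 0.02 in the p53-null sets (SD, n = 2 sets each). In the HCT116 sets 10 and 9 of 12 exon probe sets were lower and 0 and 1 were higher. The median probe set differed there by −0.13 and −0.08, nearer to no change than the mean, and the lowest by −1.03 and −1.14. NKD1 is the gene among the 10 for which the set labelled HCT116 replicate 1 and HCT116 replicate 2 both lay below −0.2. Its gene-level value was exactly equal between isoginkgetin and DMSO in all 4 sets. Between the lines in DMSO it differed by −0.64 as deposited, by −0.15 after quantile scaling and by −0.63 against HCT116 replicate 2 alone.

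DACT1, a Dishevelled-binding protein that antagonises WNT signalling, was at 4.81 and 4.86 with isoginkgetin, 5.33 and 5.54 with DMSO and 5.57 and 5.62 untreated in p53-null cells (16 exon probe sets). The arrays labelled HCT116 had it at 4.58 and 3.64 with isoginkgetin, 4.47 and 3.78 with DMSO and 4.51 and 3.80 untreated. Both p53-null isoginkgetin arrays lay below all 4 p53-null arrays without drug. The difference from DMSO averaged −0.60 ± 0.11 over the p53-null sets (−33.9%) and −0.01 ± 0.18 over the HCT116 sets (SD, n = 2 sets each). In both HCT116 sets DACT1 lay below the median exon probe set of its arrays (5.03 to 5.08 and 4.18 to 4.22). How far so low a level could fall was not tested. The gene-level value was lower by 0.33 and 0.29 in p53-null cells and exactly equal in both HCT116 sets. In p53-null sets 9 and 12 of its 16 exon probe sets were lower, by up to 1.82, and 1 and 2 were higher. Without drug, DACT1 was the second gene by its gap between the lines, with 5.44 ± 0.14 in p53-null DMSO arrays, against 4.12 ± 0.49 in HCT116 DMSO arrays. Against HCT116 replicate 2 alone the difference was 1.66, which is 3.16-fold, and 14 of 16 exon probe sets were higher in p53-null cells.

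LGR5, the R-spondin receptor that marks crypt stem cells and a target of the pathway, was at 3.16 and 3.35 with isoginkgetin, 3.13 and 3.40 with DMSO and 3.17 and 3.36 untreated in p53-null cells (27 exon probe sets). Arrays labelled HCT116 read 5.62 and 2.96 with isoginkgetin, 6.00 and 2.96 with DMSO and 6.03 and 2.93 untreated. It was high in the set labelled HCT116 replicate 1 and low in the other 3, where its treatments differed by at most 0.05. In the high set the isoginkgetin array was 0.38 below DMSO, with 17 of 27 exon probe sets lower and 3 higher. Against that set all 27 exon probe sets were lower in p53-null DMSO arrays, while against HCT116 replicate 2 only 5 were lower and 22 were higher. The difference between the lines of −1.22 over both HCT116 arrays was 0.30 against HCT116 replicate 2 alone, so its direction was that of 1 set.

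**Figure D2:**
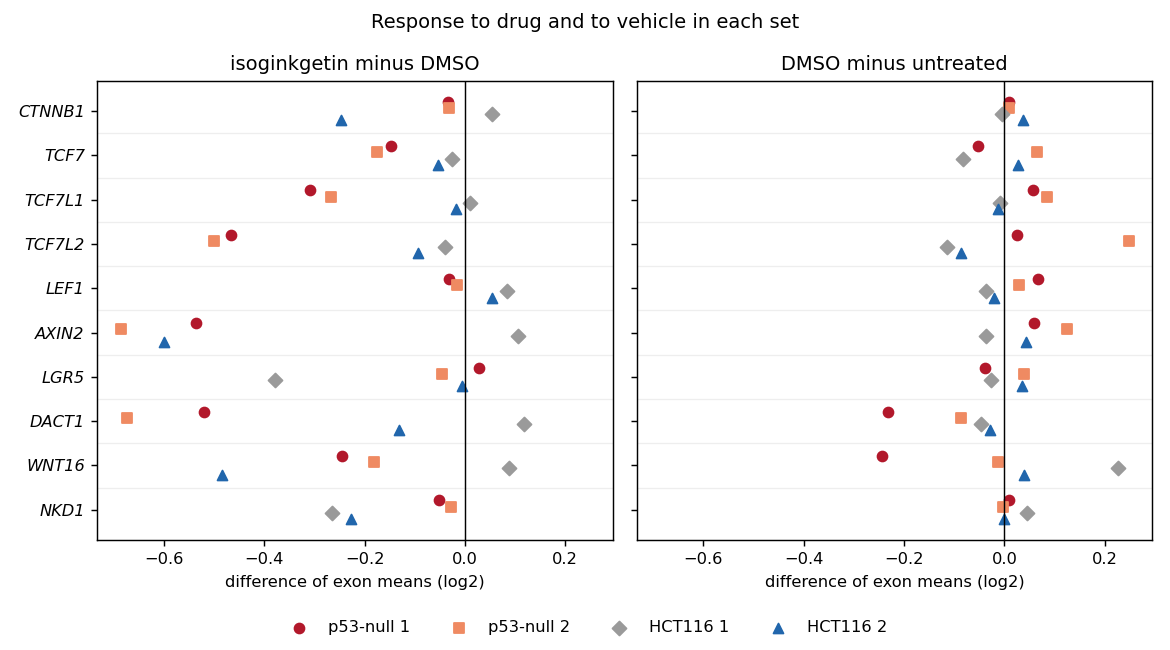
Difference of exon means (log2, horizontal axis) for the 10 genes, with isoginkgetin minus DMSO on the left, DMSO minus untreated on the right, and a point for each of the 4 sets. On the left AXIN2 lies between −0.69 and −0.54 in 3 sets and at 0.11 in the set labelled HCT116 replicate 1, and on the right all points lie between −0.24 and 0.25.

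Read together, all 10 genes had a mean difference below 0 in p53-null cells and 9 of 10 in HCT116 cells. Their medians were −0.19 and −0.08, against medians of 0.01 and 0.01 over all 18640 genes. The direction in HCT116 cells was that of 1 set: without HCT116 replicate 2, 4 of the 10 were below 0, with a median of 0.03. With the median of exon probe sets in place of their mean, 7 of 10 were below 0 in p53-null cells and 8 of 10 in HCT116 cells. In the gene-level table, where most genes were exactly equal, 4 of 9 were below 0 in each line, with medians of 0. The genes were chosen with these comparisons in view, so that the choice decided the counts that follow and nothing is read from them. In limma with the set as a block and adjustment over all genes, 3 of the 10 passed an adjusted p of 0.05 in p53-null cells, all lower, where 0.397% of all genes passed and 0.182% passed lower. In HCT116 cells 1 passed, lower, where 3.71% of all genes passed and 3.04% passed lower. Over the 4 sets 4 passed, all lower, where 4.65% of all genes passed and 3.19% passed lower. Without the set labelled HCT116 replicate 1, 4 passed in p53-null cells (all lower, where 2.38% of all genes passed and 1.15% passed lower) and 4 in HCT116 replicate 2 (all lower, where 13.8% passed and 9.0% passed lower), a lone set whose spread is taken from the p53-null sets. With 1 shared response over the 3 sets without HCT116 replicate 1, added after the data were seen, 1 of the 10 passed, where 2.45% of all genes passed. Leaving out p53-null replicate 1 or p53-null replicate 2 left 0 of the 10, and 0 of all genes, in each of these comparisons, and so did the fit without the set as a block. The median of exon probe sets gave 0 of the 10 in p53-null cells, in HCT116 cells and over the 4 sets, and the intensity trend gave 0 in p53-null cells.

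The difference between the responses of the lines was widest for DACT1 at −0.59, TCF7L2 at −0.42, AXIN2 at −0.36 and TCF7L1 at −0.28 (log2, p53-null minus HCT116). NKD1 lay on the other side at 0.21. In HCT116 replicate 2 alone AXIN2 differed by −0.60, against a mean of −0.61 in p53-null cells. Its difference between the lines was thus that of the set labelled HCT116 replicate 1, at 0.11. DACT1, TCF7L2 and TCF7L1 differed by −0.13, −0.09 and −0.02 in HCT116 replicate 2, against means of −0.60, −0.48 and −0.29 in p53-null cells. NKD1 differed by −0.23 there, against −0.04. In the limma interaction 0 of the 10 genes and 0.0% of all genes passed, with 2432 genes at an unadjusted p under 0.05. Without the set labelled HCT116 replicate 1, 1 of the 10 passed, where 5.94% of all genes passed. Between the lines in DMSO 0 of the 10 passed, where 0.00536% of all genes passed, and without that set 3 passed, all higher in p53-null cells, where 2.48% passed and 0.633% passed higher. That comparison then rests on 1 HCT116 array, whose spread is taken from the p53-null arrays, and nothing is read from these counts either.

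DMSO itself was compared with no treatment, a comparison not used to choose the genes but one that shares the DMSO arrays with the drug comparison. In p53-null cells 0 of the 10 genes passed limma at an adjusted p of 0.05, and 0.0% of all genes, with 810 of 18640 at an unadjusted p under 0.05. In HCT116 cells 0 of the 10 passed, and 0.0% of all genes, with 412 at an unadjusted p under 0.05. The widest mean differences among the 10 genes were −0.16 ± 0.07 for DACT1 and 0.14 ± 0.06 for TCF7L2 in p53-null cells, and 0.13 ± 0.16 for WNT16 and −0.10 ± 0.06 for TCF7L2 in HCT116 cells (log2, DMSO minus untreated, SE of limma). The adjusted p was 1.00 for each of these. Over the 3 sets without HCT116 replicate 1, a comparison added after the data were seen, AXIN2 differed by 0.08 ± 0.04 and 0 of the 10 passed, with 0.0% of all genes.

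**Figure D3:**
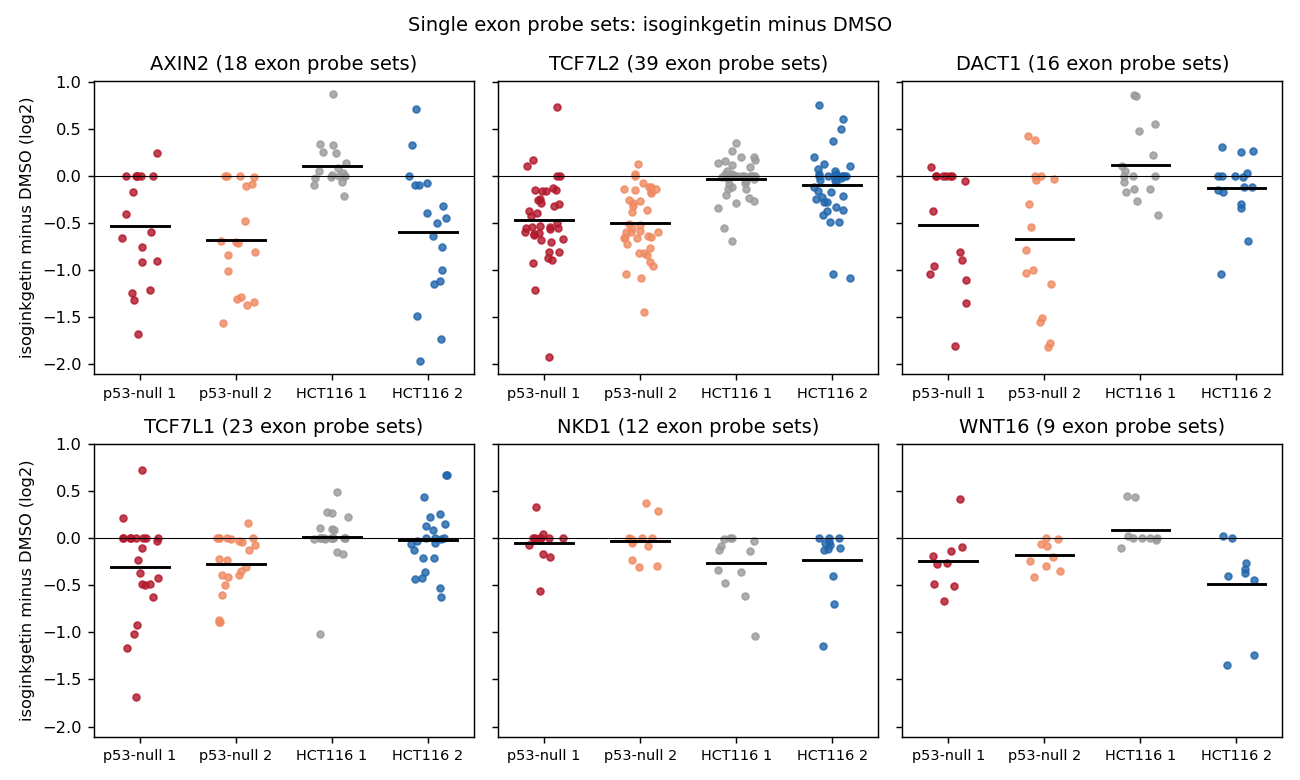
Isoginkgetin minus DMSO (log2, vertical axis) for each exon probe set of 6 genes in the 4 sets, with a black bar at the mean of the probe sets. AXIN2, TCF7L2 and DACT1 have most of their points below 0 in the p53-null sets, and the points of the set labelled HCT116 replicate 1 scatter around 0 for all but NKD1.

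Exon probe sets within a gene did not all move alike, and many did not move at all. Of all exon probe sets on the array, 29.8% to 36.5% had exactly the same value with isoginkgetin and DMSO in a set. Among the 10 genes the share of equal probe sets was highest for NKD1 in p53-null replicate 1, with 6 of 12, and lowest for WNT16 in that set, with 0 of 9. AXIN2 probe sets differed by −1.69 to 0.24 and by −1.57 to 0.00 in the p53-null sets, and by −1.97 to 0.70 in HCT116 replicate 2. Each probe set was also tested over the 4 sets relative to the exon mean of its gene. Of 488 exon and junction probe sets of the 10 genes 0 passed limma, with 0.0% of 667321 probe sets. A simulation changed probe sets in p53-null isoginkgetin arrays only and read the response in p53-null cells. It recovered 36% of probe sets changed by 2 log2 units and 0% of those changed by 1. The reach of the test over the 4 sets was not simulated. The largest relative differences among the 10 genes were −1.08 ± 0.13 for a junction of TCF7 (adjusted p = 0.37, limma) and −0.98 ± 0.29 for a junction of NKD1 (adjusted p = 0.47, limma; log2, SE).

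Junction probe sets, which read spliced RNA, were set against the exons of the same gene. AXIN2 junctions differed between isoginkgetin and DMSO by −0.17 and −0.74 in p53-null cells and by 0.09 and −0.78 in arrays labelled HCT116. Its exons differed by −0.54 and −0.69 in p53-null cells and by 0.11 and −0.60 in arrays labelled HCT116. Junctions minus exons was widest in p53-null replicate 1, at 0.37, and was −0.18 in HCT116 replicate 2. TCF7L2 junctions differed by −0.44 and −0.49 in p53-null cells, where its exons differed by −0.47 and −0.50. DACT1 junctions differed by −0.29 and −0.47 there, less than its exons at −0.52 and −0.67. TCF7L1 was the gene with the widest mean of junctions minus exons over the 4 sets, at −0.16 ± 0.06 (log2, SE, adjusted p = 0.54, limma), below 0 in 4 of 4 sets. In this test 0 of the 10 genes passed, and 0.0% of 16728 genes, with 1430 at an unadjusted p under 0.05. Without the set labelled HCT116 replicate 1, 0 of the 10 passed as well.

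**Figure D4:**
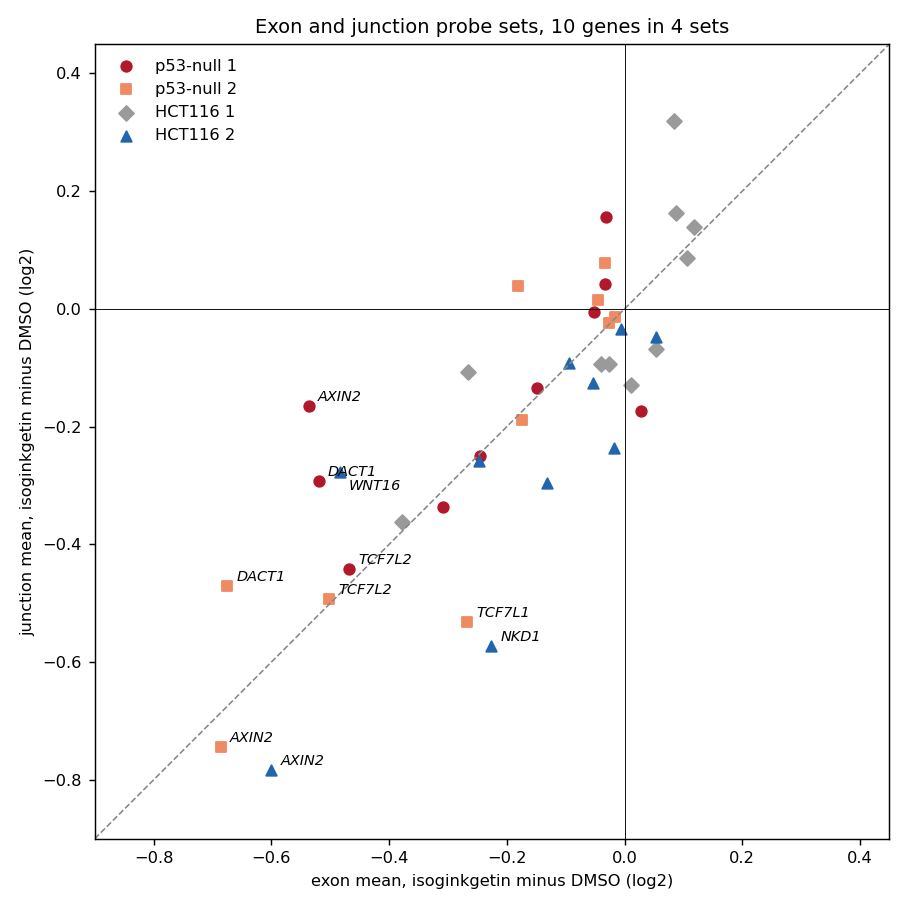
Isoginkgetin minus DMSO of the junction mean (log2, vertical axis) against that of the exon mean (log2, horizontal axis) for the 10 genes in 4 sets, with a dashed line where both are equal. TCF7L2 lies on the line in both p53-null sets, and AXIN2 in p53-null replicate 1 lies above it at −0.54 and −0.17.

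Other genes of the pathway were listed by role from general knowledge, with earlier results of these data known, and 108 of 112 had an exon mean. In p53-null cells 0 of the 108 passed limma at an adjusted p of 0.05, where 0.397% of all genes passed, and 57 of the 108 were below 0. The 3 with the smallest adjusted p were GSK3B, a kinase of the degradation complex, at −0.26 ± 0.05 (adjusted p = 0.088, limma), the co-receptor LRP5 at 0.17 ± 0.03 (adjusted p = 0.10, limma) and JUP, a relative of beta-catenin, at −0.22 ± 0.05 (adjusted p = 0.12, limma; log2, SE). GSK3B was at 10.09 and 10.32 with isoginkgetin, 10.39 and 10.54 with DMSO and 10.22 and 10.43 untreated. In each p53-null set the untreated array thus lay between the isoginkgetin and the DMSO array.

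In HCT116 cells 5 of the 108 passed limma (4.63%), 4 of them lower, where 3.71% of all genes passed. These shares are close, so the count is not a result about the pathway. RYK, a WNT receptor, fell by 0.34 ± 0.05 (log2, SE, adjusted p = 0.021, limma), with 12.14 and 11.41 with isoginkgetin, against 12.50 and 11.72 with DMSO. Of 16 genes for proteins of the cytoplasm and degradation complex, 3 passed, all lower. Of the 16, 14 were below 0, with a median of −0.12. The median was 0.01 over all genes and −0.05 over genes with a mean level of at least 5. The share of all genes below 0 was not counted, so nothing is read from the 14. AMER1, which brings the complex to the membrane, fell by 0.26 (adjusted p = 0.033, limma), FBXW11, a subunit of the ubiquitin ligase that recognises beta-catenin, by 0.28 (adjusted p = 0.033, limma) and the kinase CSNK1D by 0.22 (adjusted p = 0.034, limma). Without the set labelled HCT116 replicate 1, AMER1 and CSNK1D did not pass, at −0.18 (adjusted p = 0.059, limma) and −0.19 (adjusted p = 0.076, limma). The DMSO arrays had AMER1 at 7.19 in that set and at 4.44 in HCT116 replicate 2. Among 17 measured targets, PPARD, a nuclear receptor, rose by 0.30 ± 0.04 (adjusted p = 0.018, limma), with 9.65 and 9.44 with isoginkgetin, against 9.32 and 9.18 with DMSO. In the p53-null sets PPARD differed by 0.01 and 0.00. None of 18 ligands, 15 nuclear partners and 19 inhibitors passed in either line. Of the sets behind these calls, 1 had the epithelial marker levels of the p53-null sets and 1 lay below them.

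In the limma interaction of line and drug 0 of the 108 passed, with 0.0% of all genes. Its smallest adjusted p values were those of the target MYC at 0.52 ± 0.09 (adjusted p = 0.16, limma), PPARD at −0.29 ± 0.05 (adjusted p = 0.16, limma) and FBXW11 at 0.32 ± 0.07 (adjusted p = 0.18, limma; log2, p53-null minus HCT116, SE). MYC differed between isoginkgetin and DMSO by 0.42 and 0.16 in p53-null cells and by −0.27 and −0.20 in arrays labelled HCT116. For DMSO against no treatment, 0 of the 108 passed in either line.

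Without the set labelled HCT116 replicate 1, 15 of the 108 (13.9%) passed in HCT116 replicate 2, where 13.8% of all genes passed, so that the count is not a result about the pathway. This is 1 isoginkgetin array against 1 DMSO array. Its spread is taken from the p53-null sets, so only the sizes of the differences are given. Most of these genes were lower. The higher ones, named after their values were seen, were PPARD, the inhibitor NOTUM and the R-spondin RSPO4, by 0.26, 0.22 and 0.20. RSPO4 was at 3.72 with isoginkgetin and 3.52 with DMSO, below the median exon probe set of these arrays (4.22 and 4.18). The target BMP4 was lower by 0.76 (log2), with 9.39 with isoginkgetin, against 10.15 with DMSO. RNF43, a ubiquitin ligase that removes Frizzled receptors and is itself a target, was lower by 0.64, and its relative ZNRF3 by 0.33. CCND1, a cyclin gene among the targets, was lower by 0.65, and DVL2, a Dishevelled protein, by 0.48. In that fit 3 of the 108 (2.78%) passed in p53-null cells: GSK3B, BMP4 and CREBBP, a coactivator of beta-catenin, fell by 0.26 (adjusted p = 0.036, limma), 0.23 (adjusted p = 0.043, limma) and 0.24 (adjusted p = 0.043, limma), where 2.38% of all genes passed. The response differed between the lines for 5 of the 108 in this fit (4.63%; BMP4, CCND1, RNF43, FBXW11 and ZNRF3), each with the lower value in HCT116, where 5.94% of all genes passed. This share is no higher than that of all genes, and HCT116 is there the set of replicate 2 alone. AXIN2, another target and the paralog of AXIN1 in the complex, was lower by a like amount in these 3 sets, at −0.54, −0.69 and −0.60.

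Over the 4 sets 6 of the 108 (5.56%) passed, where 4.65% of all genes passed. These shares are close as well, and the count is not a result about the pathway. RYK, GSK3B, CSNK1D, CREBBP and KREMEN1, a receptor of the DKK inhibitors, fell by 0.15 to 0.23, and PPARD rose by 0.15 (log2, adjusted p = 0.023 to 0.048, limma). CREBBP was at 11.46 and 10.89 with isoginkgetin, 11.73 and 11.09 with DMSO and 11.46 and 10.90 untreated in p53-null cells. In arrays labelled HCT116 it was at 11.88 and 11.55 with isoginkgetin, 12.14 and 11.72 with DMSO and 12.25 and 11.62 untreated. It was lower with isoginkgetin than with DMSO in all 4 sets, while in p53-null cells isoginkgetin lay at the untreated level.

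**Figure D5:**
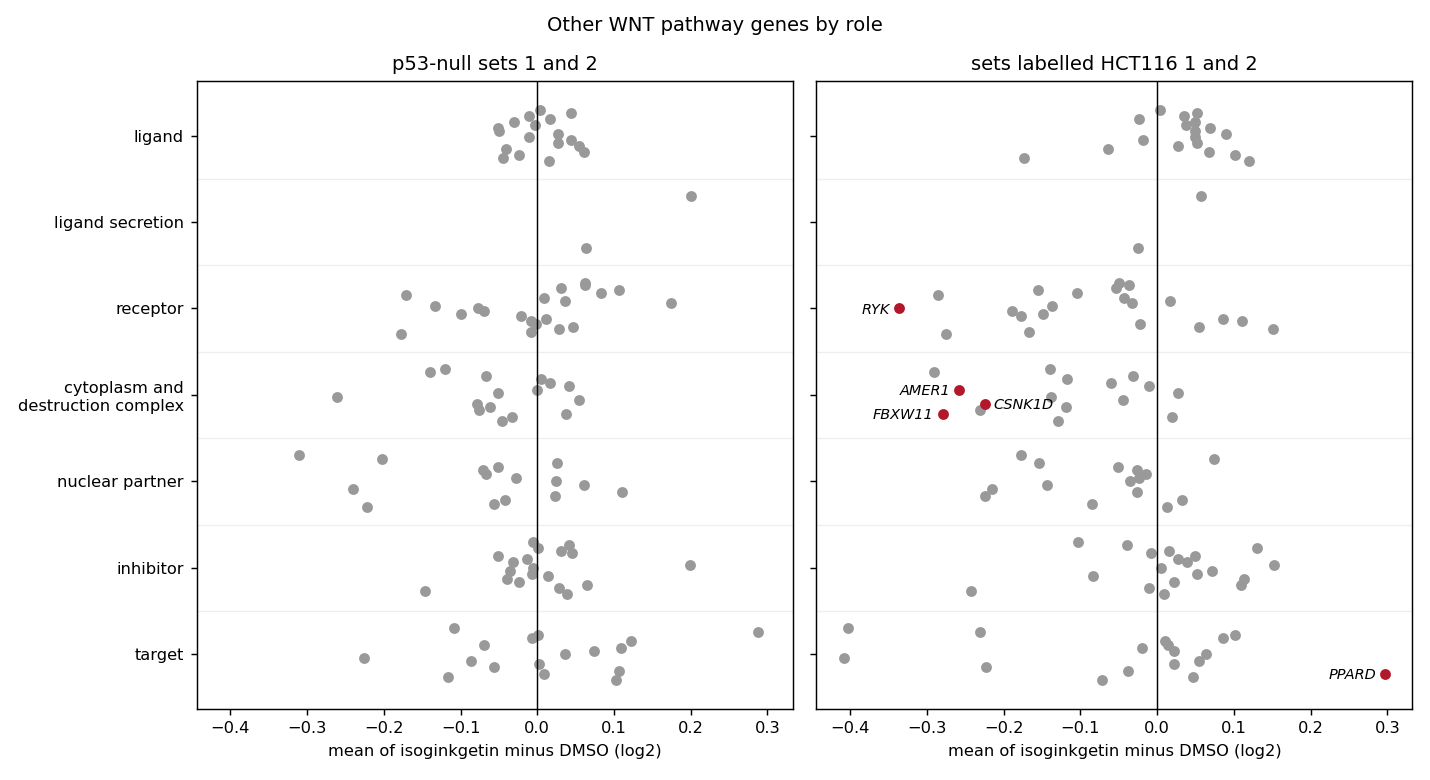
Mean of isoginkgetin minus DMSO (log2, horizontal axis) over the p53-null sets (left) and the sets labelled HCT116 (right) for 108 pathway genes in rows by role, where a point is a gene and a named red point passed limma at an adjusted p of 0.05. No gene passed on the left, and RYK, AMER1, FBXW11, CSNK1D and PPARD passed on the right.

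Without drug, the limma comparison of the lines called 0 of the 108, and 13 of the 108 without the set labelled HCT116 replicate 1, where 2.48% of all genes passed. That comparison rests on 2 p53-null arrays and 1 HCT116 array, and its spread is taken from the p53-null arrays. SOX9, a target in crypt cells, was then higher in p53-null cells by 2.05, with 12.73 and 12.73 in p53-null DMSO arrays, against 10.68 in HCT116 replicate 2. RNF43 was higher by 1.33, as AXIN2 was by 1.19. PORCN, the enzyme that acylates WNT ligands for secretion, was at −1.89, the target MET at −1.49 and LGR4, a relative of LGR5, at −1.31 (log2, p53-null minus HCT116). The targets CEMIP and PPARD were lower in p53-null cells as well. CEMIP was at 3.97 and 5.02 in p53-null DMSO arrays, against 6.02 in HCT116 replicate 2, and PPARD at 7.72 and 8.12, against 9.18. Of the targets named here, SOX9, RNF43 and AXIN2 were thus higher in p53-null cells, and MET, CEMIP and PPARD were lower.

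For the 2 genes with the widest mean difference over the 4 sets, AXIN2 and DACT1, the genes most alike over the 12 arrays were sought after the mean of each set was removed, among 10182 and 10183 genes with a mean level of at least 5. For AXIN2 these were SAMD9 (Pearson r = 0.981), LPIN1 (r = 0.979) and ARAP2 (r = 0.976). SAMD9 differed between isoginkgetin and DMSO by −0.56 and −0.74 in p53-null cells and by −0.07 and −0.65 in arrays labelled HCT116. For DACT1 they were UCA1 (r = 0.984), DAB2 (r = 0.983) and JUP (r = 0.972). UCA1, a long noncoding RNA, differed by −0.57 and −0.77 in p53-null cells and by 0.26 and −0.27 in arrays labelled HCT116. The 12 points share their sets and arrays, and these coefficients are a description of these arrays.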

How the data were processed

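The deposited log2 values were used as the authors made them. Per the series' design text, arrays were processed in Transcriptome Analysis Console 4.0 with default settings. The background correction, the scaling and the genome build are each not given in these sources. The probe-set table held 914585 rows (573909 exon and 339146 junction probe sets). The deposited gene-level values were an alternative. Symbols came from the platform annotation, were updated where old (2415 in the probe-set table), and only probe sets with 1 symbol were named.

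The exon mean of a gene is the mean of at least 3 exon probe sets (381369 in all, a median of 16 per gene). Comparisons used limma 3.58.1 in R 4.3.3 on all 12 arrays with moderated variances, the set as a fixed block, Benjamini-Hochberg adjustment over all genes and a threshold of 0.05. The lines were compared over the 4 DMSO arrays without a block. After removal of group means, arrays of 1 line and 1 number correlated at 0.903 to 0.997 (6 pairs) and equal numbers of different lines at 0.0684 to 0.108 (9 pairs), so that equal numbers were taken as a pairing within a line. The test in p53-null cells was checked on simulated data, with 200 of 18640 exon means changed in p53-null isoginkgetin arrays only. Of those changed by 2 log2 units 99% were recovered, and of those changed by 1 100%, with 6 false calls. Precision is limited by having 2 arrays per group, and there is no read depth.

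The 10 genes, the pathway list and the markers were chosen with earlier results of these data known. All 10 genes are named. Of the pathway list, at most the 8 called genes with the smallest adjusted p of a comparison are named, or the 3 smallest where none was called. For the 2 genes with the widest mean response, the 3 most alike genes are named. Alternatives were the fit without the block, quantile scaling, centring, the median of exon probe sets, a level filter of 5, the gene-level table, an intensity trend, a plain unpaired test and leaving out each replicate.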

Additional observations from a re-analysis of the deposited data

Results flagged for a closer look

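LEF1, a TCF/LEF factor, had opposite signs in the lines: isoginkgetin minus DMSO was −0.03 and −0.02 in p53-null cells and 0.08 and 0.05 in arrays labelled HCT116 (log2 exon mean, replicates 1 and 2). The difference of the mean responses was −0.0926. LEF1 lay below the median exon probe set on each of the 12 arrays. Its gene-level value was exactly equal between isoginkgetin and DMSO in all 4 sets. It was singled out by these signs alone, and the limma interaction did not call it (adjusted p = 0.46). The signs of the mean responses turned with the median of exon probe sets in place of their mean, with mean differences of 0.04 in p53-null cells and −0.16 in arrays labelled HCT116. Of 43 exon probe sets, 12 and 16 were lower and 17 and 14 higher in the p53-null sets, and 12 and 12 were lower and 16 and 23 higher in the HCT116 sets.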

How the results depend on the processing

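The counts of called genes depended on the fit. Without the replicate block, and so without the pairing of arrays within a set, 0 genes passed in p53-null cells, in HCT116 cells and over the 4 sets, against 74, 691 and 867 with it, and the plain unpaired test also gave 0 in each line. Leaving out 1 replicate gave 0 to 444 genes in p53-null cells, 0 to 2581 in HCT116 cells, 0 to 2754 over the 4 sets, 0 to 1107 for the difference between the responses, 8 to 8920 between the lines and 0 to 1 for junctions minus exons. The 0 values of the drug comparisons came without either p53-null replicate, and the 8920 came without HCT116 replicate 2. In HCT116 cells 450 genes passed after quantile scaling and 1450 after centring, with 103 and 113 higher against 347 and 1337 lower. The median of exon probe sets gave 1, 160 and 15 (p53-null, HCT116, 4 sets), and the intensity trend gave 3 in p53-null cells. A level of at least 5 gave 119 in p53-null cells. The gene-level table gave 15, 91 and 90, with 73 for the difference, 575 and 1 for DMSO against untreated (p53-null, HCT116) and 5 between the lines. That fit is not interpreted, since 78.9% to 90.1% of its genes were exactly equal between isoginkgetin and DMSO. Between the lines 0 genes passed after quantile scaling, centring or the level filter and 2 with the trend, against 1. With 1 shared response over the 3 sets without HCT116 replicate 1, added after the data were seen, 456 genes and 1 single probe set passed. The shifts of the 10 genes' responses were set against their limma SE in the main fit, multiplied by the square root of 2. They reached this limit in 44 combinations of gene, comparison and alternative and stayed below it in 301. TCF7 in p53-null cells was at 0.01 with the median of its exon probe sets, against −0.16 with their mean. The cause of these shifts was not tested, and 2 arrays per group limit all of them.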
